A study of Mus musculus with 6 samples.

Results

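The extracellular matrix of mesenchymal cells is cut and remodeled by zinc-dependent metalloproteinases, and 46 genes of this system were followed here through osteogenic differentiation and through knockdown of NFIB or MLL1. The set held 16 matrix metalloproteinases (MMPs), 18 ADAMTS proteases, 7 membrane-anchored ADAM proteases and 5 inhibitors, which are TIMP1 to TIMP4 and the membrane-bound inhibitor RECK. The genes were taken by symbol from a list of the family, drawn up with earlier results of these data known, and the 46 symbols were matched to Ensembl genes among the 55401 genes of the count table.

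MMPs are made as inactive proenzymes and cleave collagens and other matrix proteins once their propeptide is removed. MMP14 sits in the cell membrane and, together with TIMP2, activates pro-MMP2, whereas free TIMPs block the catalytic site of active enzymes. ADAMTS proteases are secreted. Some trim procollagens (ADAMTS2 and ADAMTS14), and others cut proteoglycans such as aggrecan and versican (ADAMTS1, ADAMTS4, ADAMTS5, ADAMTS9 and ADAMTS15). ADAMs release growth factors and receptors from the cell surface. In bone, MMP2, MMP13 and MMP14 are known for their part in collagen turnover and remodeling.

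C3H10T1/2 is a mouse line of mesenchymal stem cells. RNA was sequenced from cells that carried a control short hairpin RNA (shControl), a hairpin against Nfib (shNFIB) or a hairpin against Kmt2a, which encodes MLL1 (shMLL1), at day 0, without treatment, and at day 7 of culture in osteogenic medium, which contained β-glycerophosphate, ascorbic acid 2-phosphate and dexamethasone. The 6 conditions had 1 library each, so a difference between a pair of libraries has no replicate check and is given with a counting interval only. The same shControl library served as the reference of both knockdown lines at each day.

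The libraries held between 21608680 counts (shMLL1, day 7) and 34774066 counts (shNFIB, day 0). Nfib was at 116 CPM at day 0 and 83.5 CPM at day 7 in shControl, 35.3 and 8.15 CPM in shNFIB, and 65.5 and 72.7 CPM in shMLL1, and Kmt2a at 74.7 CPM at day 0 and 66.3 CPM at day 7 in shControl, 86.5 and 94.0 CPM in shNFIB, and 30.9 and 34.8 CPM in shMLL1, where CPM is counts scaled to library size after TMM normalization (counts per 1000000). Thus each targeted transcript was lower in its own hairpin line than in shControl at both days, with Nfib at day 0 still at 35.3 CPM. The mesenchymal markers Vim and Pdgfra were at 1176 to 5979.7 CPM and 57.4 to 614 CPM. Of markers of other cell types, Adgre1 (macrophage), Epcam and Krt18 (epithelial) were at 0 in the 6 libraries, whereas Cd14 (macrophage) was at 10.6 to 23.0 CPM, Tek (endothelial) reached 25.2 CPM and Cdh1 (epithelial) was at 5.80 to 8.95 CPM at day 0. Summed per library, the endothelial list was at 2.76 to 25.4 CPM, the epithelial list at 0.203 to 9.05 CPM and the muscle list at 0.219 CPM or less. Tek (-1.85 ± 0.53, adjusted p = 0.0365) and Cdh1 (-3.76 ± 0.45, adjusted p = 0.00218) fell with day, and their part in the changes with day was not tested. The osteoblast marker Ibsp was also at 0 and Bglap did not exceed 0.426 CPM, so these transcripts of mature osteoblasts were scarce at day 7. Other markers of the osteoblast list rose in shControl, Spp1 from 217 to 1381 CPM, Runx2 from 32.8 to 117 CPM and Dlx5 from 12.8 to 52.5 CPM. At day 7 these were lower in both knockdown lines than in shControl. The 6 proliferation markers fell together over 7 days, from a summed 1519 to 309 CPM in shControl, from 2151 to 262 CPM in shNFIB and from 1550 to 213 CPM in shMLL1, and their part in the changes with day was not tested.

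Of the MMPs, Mmp3 (ENSMUSG00000043613, chr9:7445822-7455975, plus strand), Mmp8 (ENSMUSG00000005800, chr9:7558456-7568485, plus strand) and Mmp13 (ENSMUSG00000050578, chr9:7272514-7283331, plus strand) had the largest differences between knockdown and shControl libraries. They lie in 1 cluster on chromosome 9, in which 9 MMP genes annotated as protein-coding span 427.1 kb. Their promoters are shown because the study concerns NFIB, a protein that binds DNA at TTGGCA core motifs, and because MMP promoters are known for AP-1 sites. Gene positions are those of GENCODE M21 on GRCm38. The sequences are the 300 bases around the start site in RefSeq on GRCm38.p6, plus strand, at chr9:7445572-7445871 for Mmp3, chr9:7558179-7558478 for Mmp8 and chr9:7272264-7272563 for Mmp13, and capitals mark matches to the AP-1 motif TGANTCA and the NFI core motif TTGGCA on either strand.
Mmp3: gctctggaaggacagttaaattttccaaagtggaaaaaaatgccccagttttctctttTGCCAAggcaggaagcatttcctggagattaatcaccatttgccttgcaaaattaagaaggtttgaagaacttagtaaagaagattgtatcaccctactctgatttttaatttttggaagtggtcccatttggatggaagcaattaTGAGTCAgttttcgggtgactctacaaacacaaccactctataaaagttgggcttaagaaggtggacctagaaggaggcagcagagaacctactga
Mmp8: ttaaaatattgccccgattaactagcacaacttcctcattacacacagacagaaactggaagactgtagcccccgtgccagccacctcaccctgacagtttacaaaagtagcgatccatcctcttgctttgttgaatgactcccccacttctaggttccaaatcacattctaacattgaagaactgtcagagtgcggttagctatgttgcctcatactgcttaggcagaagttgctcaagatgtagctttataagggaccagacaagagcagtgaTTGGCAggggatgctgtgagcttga
Mmp13: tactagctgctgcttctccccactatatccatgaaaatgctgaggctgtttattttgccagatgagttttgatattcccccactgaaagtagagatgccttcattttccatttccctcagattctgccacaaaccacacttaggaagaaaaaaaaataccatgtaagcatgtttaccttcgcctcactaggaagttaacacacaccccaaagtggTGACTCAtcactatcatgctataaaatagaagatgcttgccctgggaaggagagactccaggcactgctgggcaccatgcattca
The Mmp3 promoter held TGAGTCA at position -46 and an NFI core on the minus strand at position -192, counted from the start site. The Mmp13 promoter held TGACTCA at position -35 and, on the minus strand, the RUNX motif TGTGGT at position -118. The Mmp8 promoter held only the NFI core, at position 25. Over the 32851 promoters of this length, TGANTCA was found in 7.81%, TTGGCA in 14.1%, TGTGGT in 16.8% and the glucocorticoid receptor motif AGAACA in 19%. RefSeq promoters were matched for 30 of the 46 genes, with 34 promoters, of which 5 held TGANTCA (Mmp3, Mmp10, Mmp12, Mmp13 and Adam19), 4 held TTGGCA (Mmp3, Mmp8, Timp2 and Adam8) and 5 each held the RUNX and the glucocorticoid receptor motifs. A match of letters does not show binding.

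Levels were first compared between genes as CPM per kilobase of exon. Timp2 was the most abundant transcript of the set, with a mean of 590.0 CPM per kb over the 6 libraries, followed by Mmp2 (211), Timp1 (179), Mmp14 (127) and Adamts1 (123). Timp2 ranged from 249 to 948 CPM per kb and Mmp2 from 63.6 to 411, so their ranges overlapped. Among the ADAMs, Adam9 (65.0) and Adam10 (42.7) led on the same scale. At the other end, Mmp10, Adamts3, Adamts18 and Adamts20 had at most 3 counts in every library, and Mmp12, Mmp24 and Adamts19 stayed under 10 counts in every library. Altogether 39 genes reached 10 counts in at least 1 library, and 35 passed the filter on low counts and entered the fit over lines. The genes that did not enter it were Mmp8, Mmp10, Mmp12, Mmp17, Mmp24, Adamts3, Adamts8, Adamts17, Adamts18, Adamts19 and Adamts20.

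**Figure D1:**
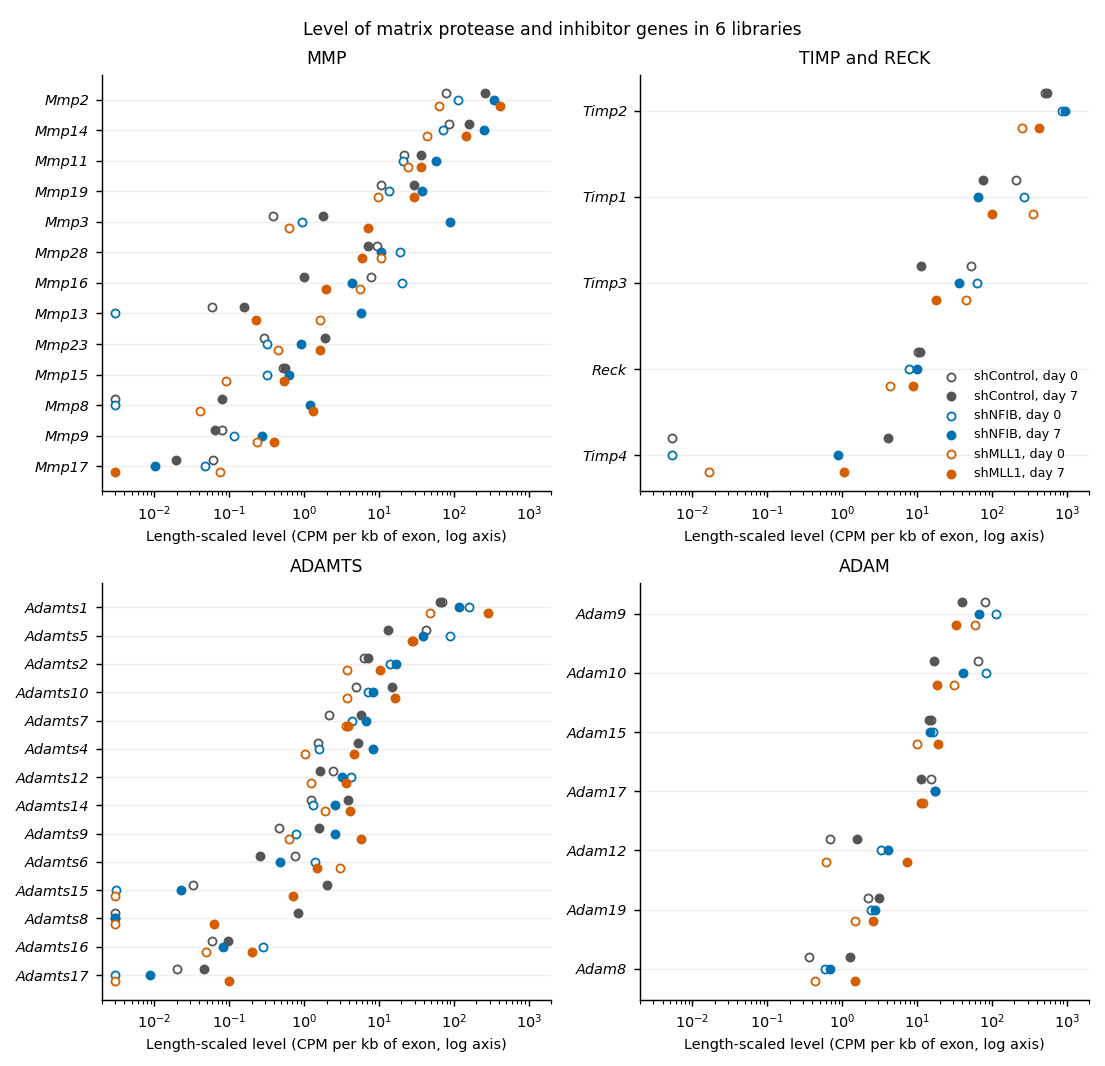
Length-scaled level (CPM per kb of exon, log axis) of the 39 genes with at least 10 counts in a library, for shControl (gray), shNFIB (blue) and shMLL1 (orange) at day 0 (open) and day 7 (filled). A level of 0 is drawn at the left edge. Timp2, Mmp2, Timp1 and Mmp14 sit at the top of their panels, and Timp4, Mmp3, Mmp8, Mmp13, Adamts8 and Adamts15 spread most between libraries.

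The first comparison asked which protease and inhibitor transcripts differ between day 0 and day 7 of osteogenic medium irrespective of the hairpin. No library came from day 7 without osteogenic medium, so effects of the medium and of time in culture cannot be told apart. In edgeR's quasi-likelihood fit with line and day as terms, 12 of the 35 genes rose and 7 fell at an adjusted p under 0.05 (34.3% and 20%), whereas 17.2% of the 15741 genes tested rose and 17.3% fell. Among protein-coding genes alone, 15.2% rose and 19.7% fell. Scaling by library size alone moved the split over all genes from 2713 higher and 2719 lower to 3156 higher and 2093 lower. The median log2 fold change of the 35 genes was 0.65, beside -0.02 for all genes tested. By class, 6 of 11 MMPs rose and 2 fell, 5 of 12 ADAMTS genes rose and 1 fell, 1 of 5 inhibitors rose and 2 fell, and none of 7 ADAMs rose while 2 fell. Errors of these fitted changes are the size of the change divided by the square root of edgeR's quasi-likelihood F statistic. They rest on a spread that edgeR estimates with information shared between genes, and are not the spread of the changes of the 3 lines. The p-values treat the 3 lines as replicates of the change with day. Because the 3 lines carry different hairpins and each line was sampled once per day, line differences and culture variation cannot be told apart.

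**Figure D2:**
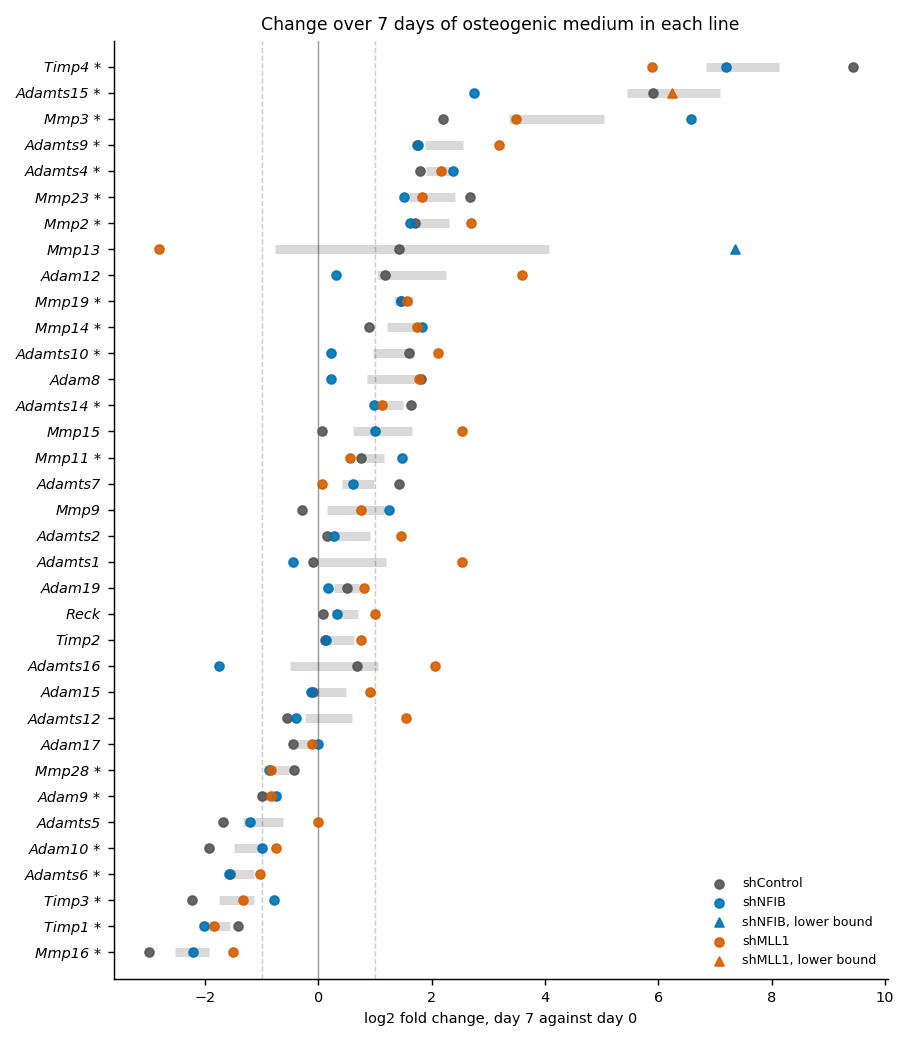
Change from day 0 to day 7 (log2 fold change) of the 35 genes in the fit, with 1 point per line. Gray bars span the fitted change ± 1 SE, asterisks mark an adjusted p under 0.05, dashed lines mark 2-fold, and triangles are lower bounds against a day 0 library with 0 counts. Timp4, Adamts15 and Mmp3 lie far to the right, Mmp16, Timp1 and Timp3 to the left, and the lines differ in direction for Mmp13 and Adamts16.

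Among the MMPs, the gelatinase and the membrane protease that activates it rose in each line. Mmp2, the gelatinase that cleaves denatured collagen and basement membrane collagen, was at 268 CPM at day 0 and 872 CPM at day 7 in shControl, 378 and 1157 CPM in shNFIB, and 214 and 1387 CPM in shMLL1. All 3 day 7 libraries lay above all 3 day 0 libraries, with a fitted log2 fold change of 2.00 ± 0.30, adjusted p = 0.00501. Mmp14, the membrane-type collagenase that activates pro-MMP2, was at 512 CPM at day 0 and 953 CPM at day 7 in shControl, 425 and 1514 CPM in shNFIB, and 262 and 873 CPM in shMLL1. The day 7 libraries again lay above the day 0 libraries without overlap (1.49 ± 0.28, adjusted p = 0.0101). The change was largest in shNFIB, at 1.83 on the log2 scale, and in shControl it was 0.90, under 2-fold.

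Mmp3 (stromelysin-1), which degrades proteoglycans and activates other proMMPs, was at 0.689 CPM at day 0 and 3.18 CPM at day 7 in shControl, 1.68 and 159.7 CPM in shNFIB, and 1.13 and 12.7 CPM in shMLL1. It rose in every line (4.21 ± 0.84, adjusted p = 0.0117), but over a wide range, by 2.20 (95% counting interval 1.53 to 2.95) on the log2 scale in shControl, 6.57 (6.18 to 6.99) in shNFIB and 3.49 (2.99 to 4.06) in shMLL1. Ranges in parentheses after a log2 ratio are such intervals from here on. Mmp19, a basement membrane protease, changed almost equally in the lines, by 1.46, 1.46 and 1.57 on the log2 scale in shControl, shNFIB and shMLL1. Its levels were 37.4 CPM at day 0 and 103 CPM at day 7 in shControl, 47.8 and 132 CPM in shNFIB, and 34.8 and 103 CPM in shMLL1, and the fitted change was 1.50 ± 0.17, adjusted p = 0.00196. Mmp23, a membrane-linked family member of low abundance, was at 0.689 CPM at day 0 and 4.43 CPM at day 7 in shControl, 0.760 and 2.17 CPM in shNFIB, and 1.06 and 3.77 CPM in shMLL1. Its day 7 values exceeded its day 0 values in every library, most in shControl (2.00 ± 0.40, adjusted p = 0.0121). Mmp11 (stromelysin-3), a protease of stromal fibroblasts, was at 60.9 CPM at day 0 and 102 CPM at day 7 in shControl, 57.5 and 159 CPM in shNFIB, and 68.9 and 102 CPM in shMLL1, with the highest value in shNFIB at day 7 (0.93 ± 0.23, adjusted p = 0.023).

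Mmp16 and Mmp28 fell. Mmp16, another membrane-type MMP, was at 68.4 CPM at day 0 and 8.56 CPM at day 7 in shControl, 175 and 37.9 CPM in shNFIB, and 48.1 and 16.8 CPM in shMLL1. The decrease exceeded 2-fold in each line (-2.24 ± 0.30, adjusted p = 0.00332), and the highest day 7 value, in shNFIB, lay below the lowest day 0 value, in shMLL1. Mmp28 (epilysin) was at 37.1 CPM at day 0 and 27.4 CPM at day 7 in shControl, 74.5 and 40.9 CPM in shNFIB, and 40.8 and 22.9 CPM in shMLL1, and its decrease stayed under 2-fold in the 3 lines (-0.71 ± 0.19, adjusted p = 0.0287). The remaining MMPs in the fit, Mmp9, Mmp13 and Mmp15, did not pass the test.

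The inhibitors moved apart. Timp1, a secreted broad inhibitor of MMPs, was at 184 CPM at day 0 and 68.3 CPM at day 7 in shControl, 237 and 58.4 CPM in shNFIB, and 316 and 88.0 CPM in shMLL1. All day 7 values lay below all day 0 values (-1.77 ± 0.21, adjusted p = 0.0022), and the decrease exceeded 2-fold in each line. Timp3, the matrix-bound TIMP that also blocks ADAMTS4, ADAMTS5 and ADAM17, was at 427 CPM at day 0 and 91.0 CPM at day 7 in shControl, 517 and 299 CPM in shNFIB, and 369 and 146 CPM in shMLL1. It was lower at day 7 in every line (-1.45 ± 0.31, adjusted p = 0.0148), least in shNFIB, where the log2 change was -0.79. Timp2 was at 1975 CPM at day 0 and 2136 CPM at day 7 in shControl, 3375 and 3692 CPM in shNFIB, and 972 and 1642 CPM in shMLL1, with changes between 0.11 and 0.76 on the log2 scale that did not pass the test (0.33 ± 0.29, adjusted p = 0.402). Reck, which restrains MMP2, MMP9 and MMP14 at the cell surface, was at 49.2 CPM at day 0 and 51.7 CPM at day 7 in shControl, 37.7 and 47.5 CPM in shNFIB, and 20.9 and 41.7 CPM in shMLL1 and did not pass either (0.46 ± 0.23, adjusted p = 0.154).

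Timp4 showed the largest fitted change of the set. The gene, known for its expression in heart and adipose tissue, lies at chr6:115241892-115252205, minus strand of GRCm38 and was at 0.0313 CPM at day 0 and 24.3 CPM at day 7 in shControl, 0.0317 and 5.24 CPM in shNFIB, and 0.0994 and 6.19 CPM in shMLL1. These values rest on 1, 1 and 3 counts at day 0 and on 742, 155 and 151 counts at day 7 in shControl, shNFIB and shMLL1. The fitted log2 fold change was 7.48 ± 0.64, adjusted p = 0.00084, and the changes per line were 9.43 (7.12 to 14.91) in shControl, 7.20 (4.87 to 12.68) in shNFIB and 5.90 (4.39 to 8.25) in shMLL1. Timp4 lies within Syn2, on the opposite strand, and the strand setting of the counting is not given in the sources used here. Syn2 was at 0.313 CPM at day 0 and 6.72 CPM at day 7 in shControl, 0.982 and 8.42 CPM in shNFIB, and 1.76 and 10.00 CPM in shMLL1. Like Timp4, Syn2 was thus higher at day 7 in each line. At day 7 Syn2 was below Timp4 in shControl and above it in shNFIB and shMLL1. The part of Syn2 reads in the Timp4 counts was not tested.

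Of the ADAMTS genes, Adamts4, Adamts9, Adamts10, Adamts14 and Adamts15 rose and Adamts6 fell. Adamts4 (aggrecanase-1) was at 7.33 CPM at day 0 and 25.5 CPM at day 7 in shControl, 7.63 and 39.8 CPM in shNFIB, and 4.97 and 22.3 CPM in shMLL1. Its day 7 values lay above its day 0 values without overlap (2.12 ± 0.22, adjusted p = 0.00151). Adamts9, which cuts versican and aggrecan, was at 7.04 CPM at day 0 and 23.6 CPM at day 7 in shControl, 11.7 and 39.5 CPM in shNFIB, and 9.54 and 87.2 CPM in shMLL1, and shMLL1 at day 7 stood highest (2.22 ± 0.33, adjusted p = 0.00484). Adamts14, a procollagen N-proteinase, was at 6.39 CPM at day 0 and 19.9 CPM at day 7 in shControl, 6.75 and 13.4 CPM in shNFIB, and 9.87 and 21.6 CPM in shMLL1, again without overlap between the days (1.25 ± 0.24, adjusted p = 0.01). Adamts10, which binds fibrillin microfibrils, was at 40.9 CPM at day 0 and 124 CPM at day 7 in shControl, 59.4 and 69.2 CPM in shNFIB, and 31.1 and 134 CPM in shMLL1 (1.32 ± 0.36, adjusted p = 0.032). In shNFIB it was nearly level, at 0.22 on the log2 scale.

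Adamts15 (ENSMUSG00000033453, chr9:30899155-30922452, minus strand), a proteoglycanase, was at 0.344 CPM at day 0 and 20.8 CPM at day 7 in shControl, 0.0317 and 0.237 CPM in shNFIB, and 0 and 7.50 CPM in shMLL1. It was near the floor of 3 counts at day 0 in shNFIB (1 count) and shMLL1 (0 counts), and at day 7 it stayed low in shNFIB, with 7 counts. The fitted change was 6.27 ± 0.82, adjusted p = 0.00294, and the changes per line were 5.90 (5.06 to 6.92) in shControl, 2.75 (-0.06 to 8.40) in shNFIB and at least 6.24 in shMLL1, the last a bound against 3 counts. Adamts6 was at 5.92 CPM at day 0 and 2.00 CPM at day 7 in shControl, 11.0 and 3.69 CPM in shNFIB, and 23.8 and 11.6 CPM in shMLL1. It decreased more than 2-fold in each line (-1.39 ± 0.25, adjusted p = 0.0088), though the days overlapped because shMLL1 at day 7 exceeded shControl and shNFIB at day 0.

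Adamts1, Adamts5 and Adamts2, the most abundant ADAMTS transcripts, did not pass edgeR's test of the day effect. Adamts1, which cleaves versican and aggrecan, was at 368 CPM at day 0 and 345 CPM at day 7 in shControl, 839.6 and 614 CPM in shNFIB, and 257 and 1493 CPM in shMLL1. It differed little between days in shControl and shNFIB and was 2.54 higher on the log2 scale in shMLL1 at day 7 (0.60 ± 0.60, adjusted p = 0.456). Adamts5 (aggrecanase-2) was at 461 CPM at day 0 and 143 CPM at day 7 in shControl, 970.4 and 421 CPM in shNFIB, and 305 and 303 CPM in shMLL1. Its log2 change was -1.69 in shControl and -1.20 in shNFIB, against -0.01 in shMLL1 (-0.97 ± 0.35, adjusted p = 0.0696). DESeq2 (-0.96), edgeR with all genes kept (-0.97) and edgeR without shMLL1 (-1.48) called Adamts5 as lower. Adamts2, the main procollagen N-proteinase, was at 59.4 CPM at day 0 and 65.9 CPM at day 7 in shControl, 130.2 and 158 CPM in shNFIB, and 34.9 and 95.9 CPM in shMLL1, and only the shMLL1 pair went past 2-fold (0.62 ± 0.29, adjusted p = 0.131).

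Of the ADAMs, Adam9 and Adam10 fell. Adam10, the alpha-secretase and Notch sheddase, was at 319 CPM at day 0 and 83.9 CPM at day 7 in shControl, 406 and 204 CPM in shNFIB, and 154 and 91.1 CPM in shMLL1. It was lower at day 7 in every line (-1.22 ± 0.28, adjusted p = 0.0173), and past 2-fold in shControl, where the log2 change was -1.93. Adam9 was at 328 CPM at day 0 and 164 CPM at day 7 in shControl, 462 and 275 CPM in shNFIB, and 241 and 134 CPM in shMLL1, with changes per line under 2-fold (-0.86 ± 0.20, adjusted p = 0.0185). Adam15 was at 94.7 CPM at day 0 and 89.0 CPM at day 7 in shControl, 101 and 91.8 CPM in shNFIB, and 62.0 and 117 CPM in shMLL1 and was not called (0.23 ± 0.25, adjusted p = 0.508). Adam8, Adam12, Adam17 and Adam19 were not called by edgeR either, whereas DESeq2 with the same design, as well as edgeR with all genes kept, also called Adam8 and Adam12 as higher.

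Exons of several called genes overlap a gene on the opposite strand. Mmp19 overlaps Tmem198b (18.6 to 55.7 CPM), and Mmp11 and Timp3 overlap Chchd10 and Syn3, which did not exceed 2.00 and 0.861 CPM. Without the shControl line, which leaves 4 libraries, 10 of the 19 calls were kept, and Mmp11, Mmp23, Mmp28, Timp3, Adamts10, Adamts14, Adamts15, Adam9 and Adam10 no longer passed. Calls over all genes also dropped, to 1004 higher and 1098 lower. The fitted log2 changes without shControl kept their direction, at 0.97 to 1.62 for Mmp11, Mmp23, Adamts10 and Adamts14 and at -1.11 to -0.84 for Mmp28, Timp3, Adam9 and Adam10, and Adamts15 did not pass the filter on low counts there. Mmp11 and Mmp28 were lost without shNFIB, Adamts10 without shMLL1, and the other 10 (Mmp2, Mmp3, Mmp14, Mmp16, Mmp19, Timp1, Timp4, Adamts4, Adamts6 and Adamts9) passed with any line left out. Mmp28 also missed the threshold when libraries were scaled by size alone (-0.58).

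Within single lines a gene was counted as over 2-fold when it had at least 10 counts over the pair of libraries, differed more than 2-fold and had a 95% counting interval that excluded no change. In shControl, 14 of 39 genes were higher at day 7 and 6 lower, beside 21.0% and 13.7% of all genes. In shNFIB, 12 of 36 were higher and 5 lower, beside 14.6% and 12.6%. In shMLL1, 20 of 38 were higher and 6 lower, beside 23.8% and 18.1%. Median log2 changes of the set, with genes at 0 taken at their bound, were 0.51, 0.25 and 1.29 in shControl, shNFIB and shMLL1, against 0.02, -0.02 and 0.06 for all genes.

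Changes over 2-fold from day 0 to day 7 in all 3 lines were found for Mmp2, Mmp3, Mmp19, Mmp23, Timp4, Adamts4 and Adamts9, which were higher, and for Mmp16, Timp1 and Adamts6, which were lower. The share of all genes that did so in all 3 lines is not given here. The class that differed most in its counts was ADAMTS, picked after these counts were seen. In shMLL1, 10 of 13 ADAMTS genes were higher and 1 lower, beside 23.8% and 18.1% of all genes. In shControl 7 of 14 were higher and 2 lower, beside 21.0% and 13.7%, and in shNFIB 2 of 11 were higher and 3 lower, beside 14.6% and 12.6%. Those higher in shMLL1 included Adamts16, on 10 and 34 counts at day 0 and day 7, and Adamts17, on 0 and 19 counts. The difference between lines was not tested, as each line has 1 library per day.

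Adam12, a protease of mesenchymal progenitors that cuts IGF-binding proteins, was at 7.39 CPM at day 0 and 16.8 CPM at day 7 in shControl, 35.3 and 43.9 CPM in shNFIB, and 6.40 and 77.4 CPM in shMLL1. Its log2 change was 3.60 (3.38 to 3.82) in shMLL1, 1.18 (0.96 to 1.41) in shControl and 0.32 (0.20 to 0.43) in shNFIB, where it was already high at day 0. Adamts16 was at 0.407 CPM at day 0 and 0.656 CPM at day 7 in shControl, 1.96 and 0.575 CPM in shNFIB, and 0.331 and 1.39 CPM in shMLL1, on at most 62 counts. It was over 2-fold lower at day 7 in shNFIB (-1.76) and over 2-fold higher in shMLL1 (2.06). Mmp17, a membrane-anchored MMP, held 13, 10 and 15 counts at day 0 and 4, 2 and 0 counts at day 7 in shControl, shNFIB and shMLL1, so the day 0 libraries were the higher ones on small numbers.

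Summed by class on the length scale, MMP transcripts amounted to 217 CPM per kb in shControl at day 0 and 497 at day 7. From day 0 to day 7 they went from 259 to 804 in shNFIB and from 161 to 643 in shMLL1. The sum of the 4 TIMPs was lower at day 7, going from 766 to 641 in shControl, from 1197 to 1051 in shNFIB and from 651 to 540 CPM per kb in shMLL1. The ratio of the MMP sum to the TIMP sum was therefore 0.283 at day 0 and 0.776 at day 7 in shControl, went from 0.216 to 0.765 in shNFIB, and went from 0.248 to 1.19 in shMLL1. The 3 day 7 ratios lay above the 3 day 0 ratios. The ADAM sum fell from 179 to 88.8 in shControl, 235 to 148 in shNFIB and 115 to 92.9 in shMLL1. The ADAMTS sum went from 132 to 122, 283 to 204 and 95.9 to 361 in the same lines, so it rose only in shMLL1.
Timp2 made up 66.1% of TIMP transcripts at day 0 and 85.6% at day 7 in shControl, 72.4% and 90.2% of them in shNFIB, and 38.3% and 78.1% of them in shMLL1. In shMLL1 at day 0, Timp1 was the most abundant TIMP, with 54.7%. The ratio of Mmp14 to Timp2 transcripts was between 0.0823 and 0.176 in the day 0 libraries and between 0.268 and 0.347 in the day 7 libraries. These are ratios of transcripts and not of proteins.

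**Figure D3:**
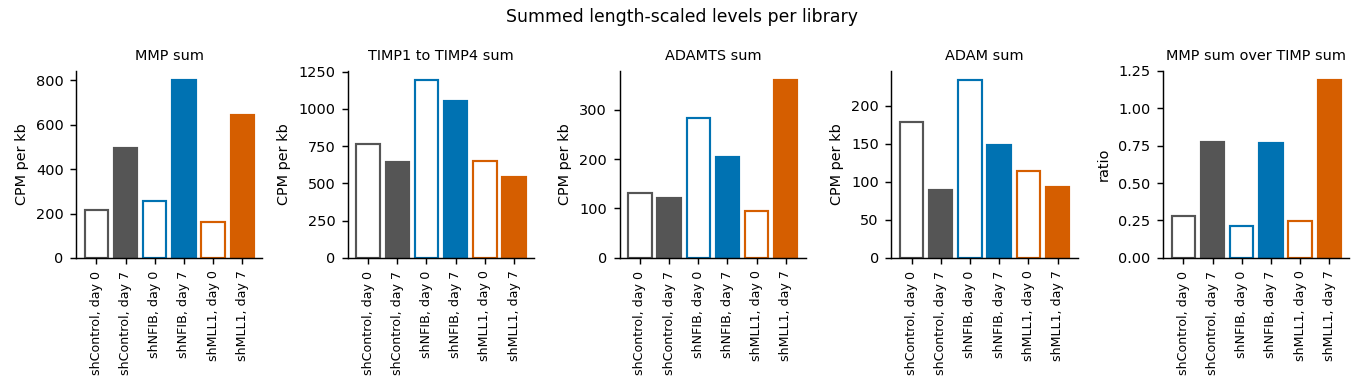
Summed length-scaled levels (CPM per kb of exon) of the MMP, TIMP, ADAMTS and ADAM genes and the ratio of the MMP to the TIMP sum, 1 bar per library, for shControl (gray), shNFIB (blue) and shMLL1 (orange) at day 0 (open) and day 7 (filled). The MMP sum and the ratio are higher at day 7 in each line, and the ratio reaches 1.19 in shMLL1 at day 7.

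The second comparison asked how knockdown of NFIB or MLL1 changes these transcripts. In the fit over both days, none of the 35 genes was called for shNFIB or for shMLL1, beside 0.0762% of all genes called higher and 0.178% called lower for shNFIB, and 0.0127% and 0.0191% for shMLL1. At an unadjusted p under 0.05 there were 11 genes of the set for shNFIB and 5 for shMLL1, beside 1956 and 1442 of the 15741 genes tested. DESeq2 on the same genes called 2 for shNFIB, Mmp16 as higher and Adamts15 as lower, and 1 for shMLL1, Adamts6 as higher. In edgeR the fitted log2 values of these were 1.69 ± 0.36, adjusted p = 0.156 for Mmp16 in shNFIB, -6.21 ± 1.08, adjusted p = 0.104 for Adamts15 in shNFIB and 2.27 ± 0.32, adjusted p = 0.105 for Adamts6 in shMLL1. Median effects over the 35 genes were 0.58 for shNFIB and 0.09 for shMLL1, beside 0.05 and -0.02 for all genes.

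Compared library by library with shControl at day 0, 9 of 34 genes were over 2-fold higher in shNFIB and 1 lower, beside 5.97% and 5.26% of all genes. At day 7, 10 of 38 were higher and 5 lower in shNFIB, beside 6.95% and 11.2%. In shMLL1 at day 0, 3 of 35 were higher and 5 lower, beside 9.54% and 8.09%, and at day 7, 10 of 38 were higher and 3 lower, beside 7.37% and 5.49%. Both knockdown lines share the shControl library, so that a deviation of that library would appear in both. At day 7, Mmp3, Mmp8, Mmp9, Adamts5 and Adam12 were over 2-fold higher in both lines, and Timp4, Adamts8 and Adamts15 were over 2-fold lower in both. The share of all genes over 2-fold in both lines is not given here, so this overlap has no background beside it.

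**Figure D4:**
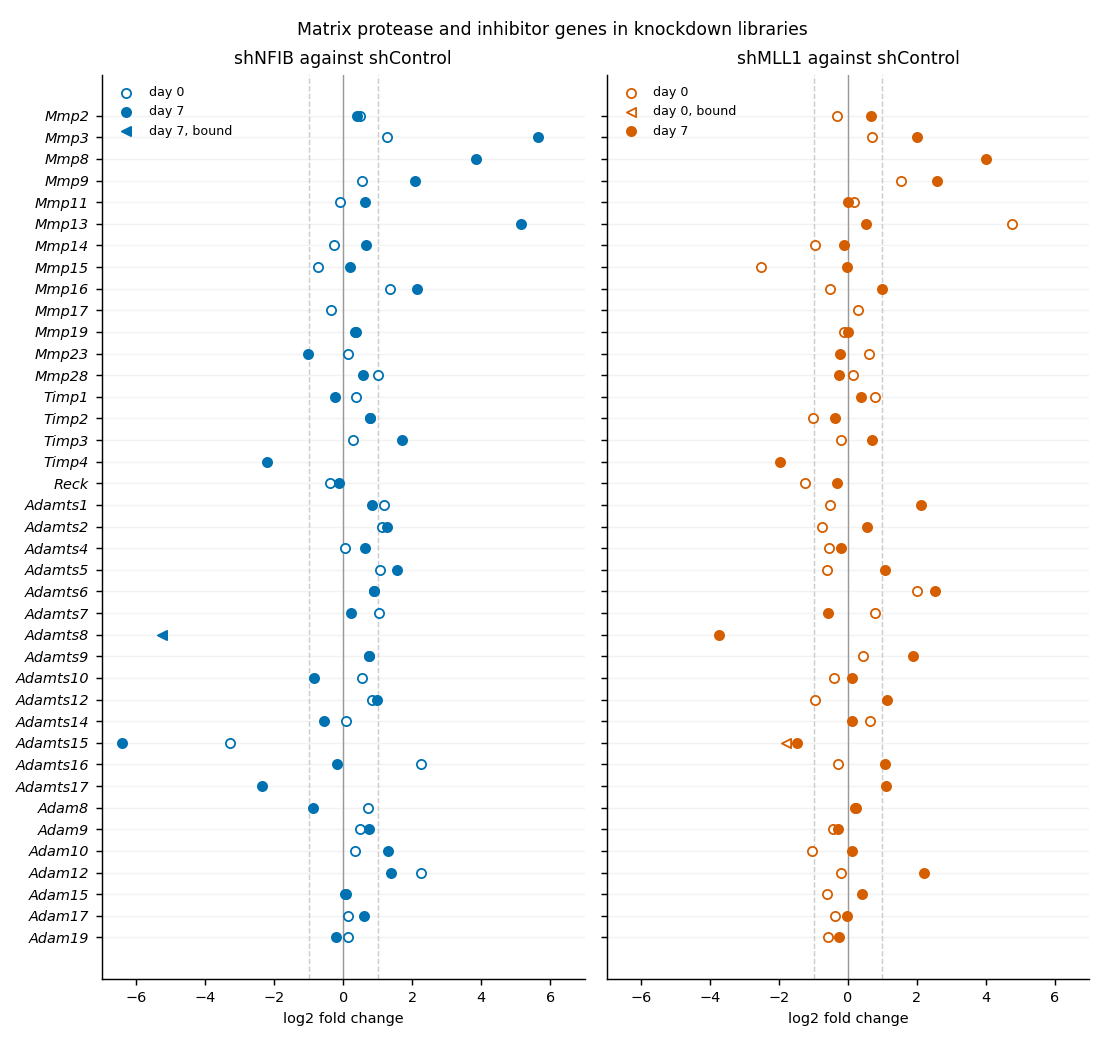
Difference from shControl (log2 fold change) of the genes with at least 10 counts over the pair of libraries, in shNFIB (left) and shMLL1 (right), at day 0 (open) and day 7 (filled). Dashed lines mark 2-fold and left-pointing triangles are upper bounds against a knockdown library with 0 counts. Mmp3, Mmp8 and Mmp13 lie to the right and Timp4, Adamts8 and Adamts15 to the left.

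The 3 neighbors on chromosome 9 were low in shControl at both days. Mmp3, whose level was given above, was 5.65 (5.36 to 5.96) higher on the log2 scale in shNFIB than in shControl at day 7, and 2.00 (1.67 to 2.35) higher in shMLL1. At day 0 the values for the same lines were 1.28 and 0.71. Mmp8 (neutrophil collagenase) was at 0 CPM at day 0 and 0.197 CPM at day 7 in shControl, 0 and 2.88 CPM in shNFIB, and 0.0994 and 3.24 CPM in shMLL1, with 6 counts in shControl, 85 in shNFIB and 79 in shMLL1 at day 7. The day 7 difference from shControl amounted to 3.84 (2.69 to 5.35) for shNFIB, compared with 4.01 (2.85 to 5.53) for shMLL1. The macrophage and leukocyte markers Adgre1 and Ptprc were at 0 in the 3 day 7 libraries, and the 6 markers of the macrophage list summed to between 17.4 and 26.6 CPM per library, mostly from Cd14. Cd68, of the same list, rose with day (1.80 ± 0.31, adjusted p = 0.00706), to 7.12 CPM in shControl, 3.99 CPM in shNFIB and 7.58 CPM in shMLL1. The part of these markers in the level of Mmp8 was not tested.

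Mmp13 (collagenase-3), the collagenase of hypertrophic cartilage and bone, was at 0.157 CPM at day 0 and 0.426 CPM at day 7 in shControl, 0 and 15.5 CPM in shNFIB, and 4.37 and 0.615 CPM in shMLL1. It was highest in shNFIB at day 7, with 457 counts, and next in shMLL1 at day 0, with 132 counts. Against shControl it was 5.17 (4.39 to 6.10) higher in shNFIB at day 7 and 4.77 (3.55 to 6.45) higher in shMLL1 at day 0, while the shMLL1 difference at day 7 was 0.52 (-0.64 to 1.72). From day 0 to day 7 the log2 change was at least 7.35 in shNFIB, against a floor of 3 counts, and -2.82 (-3.71 to -2.06) in shMLL1. The other genes counted in the cluster were Mmp27, Mmp12, Mmp1b, Mmp7, Mmp10 and Mmp20. Mmp27, which is not a member, was at 1.94 CPM in shControl, 6.87 CPM in shNFIB and 14.3 CPM in shMLL1 at day 7. Mmp12 held at most 6 counts in any library, and Mmp1b, Mmp7, Mmp10 and Mmp20 were at or under 3 counts in every library. Mmp1a, which was not counted in the cluster, held 4 counts in shNFIB at day 7 and 0 in the other libraries. Mmp9 (gelatinase B) lies on chromosome 2 and was at 0.282 CPM at day 0 and 0.230 CPM at day 7 in shControl, 0.412 and 0.981 CPM in shNFIB, and 0.828 and 1.39 CPM in shMLL1, on at most 34 counts. Its day 7 difference from shControl was 2.08 in shNFIB and 2.58 in shMLL1.

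**Figure D5:**
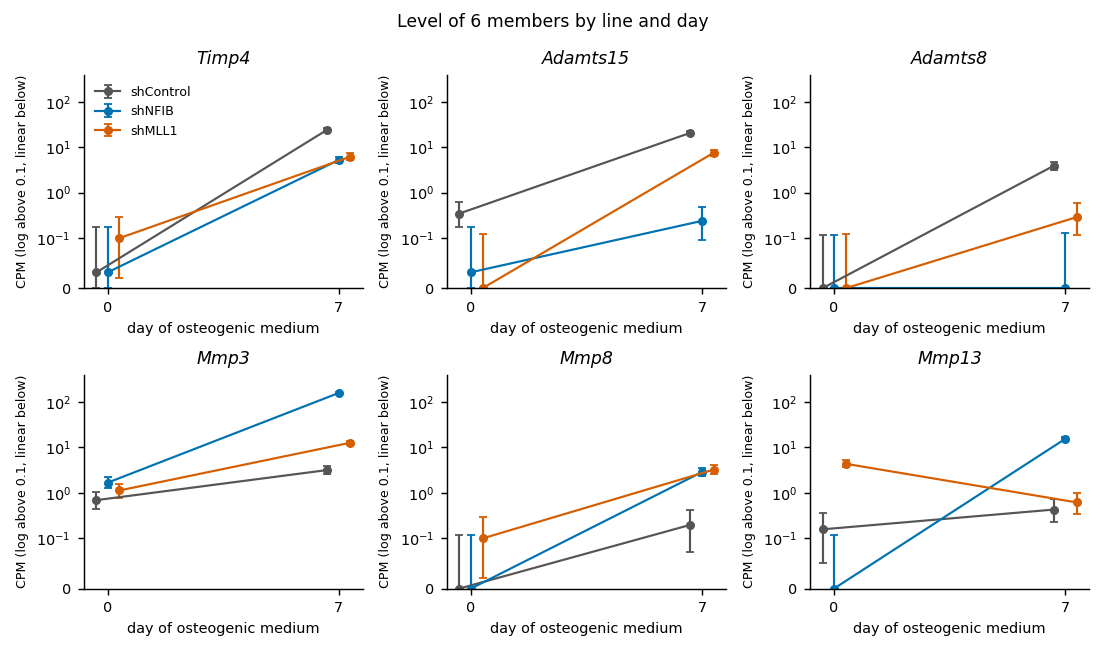
Level (CPM, logarithmic above 0.1 and linear below) of Timp4, Adamts15, Adamts8, Mmp3, Mmp8 and Mmp13 at day 0 and day 7 in shControl (gray), shNFIB (blue) and shMLL1 (orange), 1 library per point, with exact 95% Poisson intervals that cover counting error only. At day 7 the upper 3 genes are highest in shControl, and the lower 3 are lowest there.

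The opposite order held for Timp4, Adamts8 and Adamts15. Timp4 at day 7 was -2.21 (-2.47 to -1.96) on the log2 scale in shNFIB against shControl, compared with -1.97 (-2.24 to -1.72) in shMLL1. Adamts15 at day 7 stood at -6.43 (-7.77 to -5.40) for shNFIB, compared with -1.47 (-1.71 to -1.23) for shMLL1. Adamts8 (ENSMUSG00000031994, chr9:30942562-30963838, plus strand), known as an inhibitor of angiogenesis, held 118 counts in shControl at day 7, 0 in shNFIB and 7 in shMLL1, and 0 in the 3 day 0 libraries. The log2 difference from shControl was -5.25 or less in shNFIB, a bound against 3 counts, and in shMLL1 it was -3.73 (-5.10 to -2.67).
The shControl library at day 7 also differed from the other libraries in several adipocyte markers, though not in all. Cfd was at 69.8 CPM there and at 0.744 and 1.84 CPM in shNFIB and shMLL1 at day 7, Plin1 at 15.5, 0.304 and 1.15 CPM, and Lpl at 35.6, 0.744 and 0.164 CPM. In contrast, Pparg was higher in shNFIB, at 42.0, 84.2 and 20.9 CPM, Fabp4 was similar, at 4.63, 3.92 and 4.84 CPM, and Cebpa went from 19.0 CPM at day 0 to 10.3 CPM at day 7 in shControl. The 10 markers of the list summed to 205 CPM in shControl, 94.1 CPM in shNFIB and 32.1 CPM in shMLL1 at day 7, and to between 18.2 and 63.5 CPM at day 0, with Adipoq at most at 1 count in every library. Osteoblast markers, mostly Spp1, summed to 1558, 268 and 358 CPM in the same day 7 libraries, though not all were highest in shControl. Runx2 was at 117, 30.4 and 35.3 CPM and Ifitm5 at 2.59, 0.913 and 2.42 CPM. Alpl was highest in shNFIB, at 3.64, 7.27 and 0.0820 CPM. The part of either marker group in the levels of Timp4, Adamts8 and Adamts15 was not tested, and in bulk RNA fewer cells of a type cannot be told apart from less RNA per cell.

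In shNFIB, Mmp16 was 1.36 (1.29 to 1.43) higher on the log2 scale at day 0 and 2.15 (1.95 to 2.35) higher at day 7. Adam12 was 2.25 and 1.39 higher at these days, Adamts5 1.07 and 1.55, and Adamts2 1.13 and 1.26. Together with Mmp3, these 4 genes were over 2-fold higher at both days in shNFIB. At day 0 alone, Mmp28, Adamts1, Adamts7 and Adamts16 were over 2-fold higher in shNFIB, by 1.01, 1.19, 1.03 and 2.26. Adam10 and Timp3 were over 2-fold higher in shNFIB at day 7, by 1.28 and 1.72, where their decrease from day 0 was smaller than in shControl. Mmp23 and Adamts17, the latter on at most 19 counts, were lower in shNFIB at day 7, with -1.03 (-1.48 to -0.59) and -2.35 (-5.63 to -0.22). Adamts17 held 5 counts at day 0 and 11 at day 7 in shControl, 0 and 2 in shNFIB, and 0 and 19 in shMLL1.

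In shMLL1, Adamts6 and Mmp9 were over 2-fold higher at both days. The values for Adamts6 were 2.00 (1.77 to 2.24) at day 0 and 2.53 (2.13 to 2.95) at day 7, and Mmp9 at day 0 was 1.54. Adamts1 was -0.52 at day 0 and 2.11 at day 7, Adamts9 0.44 and 1.89, and Adam12 -0.21 and 2.21. Adamts12 was -0.96 and 1.14, and Adamts16 -0.29 and 1.08 (0.25 to 1.96). These 5 genes were within 2-fold of shControl at day 0 and over 2-fold higher at day 7. Timp2 (-1.02), Reck (-1.23), Adam10 (-1.05) and Mmp15 (-2.51) were over 2-fold lower in shMLL1 at day 0, and Adamts15 was lower as well, with 0 counts against 11. At day 7 the values of the first 4 were -0.38, -0.31, 0.12 and -0.04, none of them over 2-fold. With DESeq2's size factors Timp2 (-0.95) and Adam10 (-0.98) were within 2-fold at day 0. Mmp15 was at 2.85 CPM at day 0 and 2.99 CPM at day 7 in shControl, 1.71 and 3.42 CPM in shNFIB, and 0.497 and 2.91 CPM in shMLL1, so that its low value was limited to shMLL1 at day 0, with 15 counts.

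Mmp10 and Adamts18 had 0 counts in the 6 libraries, which allows a level of up to 0.0939 to 0.123 CPM per library (3 counts). Of the other 44 members, 9 passed the 2-fold rule in none of the 7 pairs of libraries, namely Adam9, Adam15, Adam17 and Adam19 and the low-count genes Mmp12, Mmp24, Adamts3, Adamts19 and Adamts20. The sheddase Adam17 (TACE), which releases TNF, was at 111 CPM at day 0 and 81.2 CPM at day 7 in shControl, 123 and 123 CPM in shNFIB, and 86.2 and 80.0 CPM in shMLL1, the narrowest range among the 7 ADAMs as a ratio of the highest to the lowest level.

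Genes that act with these proteases were counted in the same fit. Of 19 further genes of the MMP, ADAMTS-like and ADAM families, 8 were tested, 3 rose and 1 fell, where 17.2% of all genes tested rose and 17.3% fell. Mmp27 (3.50 ± 0.56, adjusted p = 0.0058), Adam11 (3.17 ± 0.53, adjusted p = 0.00661) and Adamtsl1 (2.74 ± 0.53, adjusted p = 0.0109) rose, and Adamtsl3 fell (-2.58 ± 0.25, adjusted p = 0.0011). Of the proprotein convertases that remove MMP and ADAM propeptides, Pcsk6 fell (-3.55 ± 0.28, adjusted p = 0.00073) and Furin and Pcsk7 were not called.
In the plasminogen system, which activates several proMMPs, 1 of 7 genes tested rose and 3 fell, beside the same 17.2% and 17.3% of all genes. Plau was at 24.4 CPM at day 0 and 11.0 CPM at day 7 in shControl, 39.8 and 16.5 CPM in shNFIB, and 51.7 and 37.5 CPM in shMLL1 (-0.96 ± 0.23, adjusted p = 0.0199), and its receptor Plaur (-1.24 ± 0.38, adjusted p = 0.0431) and the inhibitor Serpine2 (-0.98 ± 0.28, adjusted p = 0.0362) fell with it, whereas the low-abundance Serpinf2 rose (2.35 ± 0.68, adjusted p = 0.0365). Of 12 cofactors and clearance receptors, 1 rose and 2 fell, against the same background. Cd44, a docking site of MMP9 and MMP14, fell (-2.12 ± 0.30, adjusted p = 0.00412), as did Tspan15, a partner of ADAM10 (-1.96 ± 0.21, adjusted p = 0.00151), and Thbs2, which binds MMP2, rose (0.79 ± 0.25, adjusted p = 0.0489). The share of these genes that changed was not set against that of other lists.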

How the data were processed

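RNA-seq counts of 6 C3H10T1/2 libraries were analyzed, 1 for each hairpin line and day. The submitters' processing notes name Trimmomatic 0.39, HISAT2 2.2.1, SAMtools 1.12, HTSeq 0.11.1 and the build mm10 (GRCm38), and the values the authors deposited are raw read counts per Ensembl gene, not normalized. Duplicate reads were removed by the authors, which limits counts of abundant short genes. The strand setting is not given in the sources used here, so 15 members whose exons overlap a gene on the opposite strand are uncertain. Totals ranged from 21608680 to 34774066 counts, so that 3 counts correspond to 0.0939 to 0.123 CPM. Intervals cover counting error only.

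Counts were scaled by TMM in edgeR 4.0.16 (R 4.3.3) and fitted by its quasi-likelihood method with line and day as terms to the 15741 genes kept by filterByExpr, leaving 2 residual degrees of freedom. Benjamini-Hochberg adjustment ran over all genes tested. The line pairs the libraries, as both days come from the same cells (correlations of the day deviations of 0.441, 0.419 and 0.256), so it entered as a block. Pairs of libraries were compared by log2 ratios with a prior count of 0.125 and exact Clopper-Pearson intervals (95%), and a ratio against 0 counts was replaced by its bound at 3 counts. Levels between genes used exon lengths of GENCODE M21 on GRCm38. Promoters came from RefSeq on GRCm38.p6. DESeq2 1.42.0, other scalings, filters, call rules and subsets of libraries were tried as alternatives, and the steps were tested on simulated data. Python 3.11.15, scipy 1.17.1 and matplotlib 3.10.9 were also used.

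The members and lists were chosen with earlier results of these data known, and the motifs after the levels had been seen. Genes given with values in every library were those called in a fit, past 2-fold in the 3 lines, among the 3 largest rises or falls of a pair past 2-fold, or among the 3 most abundant of their class, and up to 4 called genes of each other list were named. A few others, such as Adam17, Adam12 and Adamts16 outside their listed pairs, overlapping genes and cell type markers, were named after their values were seen. Other assays of the study were not used here.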

Additional observations from a re-analysis of the deposited data

Results flagged for a closer look

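The change with day went in opposite directions over 2-fold in 2 lines for 2 members. For Mmp13, the log2 change from day 0 to day 7 was at least 7.35 in shNFIB, with 0 counts at day 0, and -2.82 in shMLL1. For Adamts16, it was -1.76 in shNFIB and 2.06 in shMLL1. These differences between lines were not tested, because each line had 1 library per day.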

How the results depend on the processing

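Of 126 recomputed counts of members, 109 stayed within 1.5 times the reported count. For the day effect, leaving out a line gave between 3 (without shControl) and 8 (without shMLL1) members lower, and without the replicate block (day alone) 2 were lower and 14 of the 19 calls were kept, with Mmp28, Timp3, Adamts6, Adam9 and Adam10 lost. The block by line changed no other call except that Adam8 was called without it. No call of the day effect changed direction. Over all genes, 1004 rose and 1098 fell without shControl, 1808 fell without the block and 1706 fell when a 2-fold change was also required. For shNFIB, 1 member was higher and 1 lower by DESeq2 (276 and 300 of all genes), 6 and 2 with all genes kept (341 and 347), and 4 and 2 with only the 4 libraries compared (240 and 284). For shMLL1, 1 member was higher by DESeq2 (170 and 215 of all genes), 3 with all genes kept (236 and 290) and 1 with only the 4 libraries compared (84 and 110). The cause of these differences was not tested. With at least 10 counts in each library, shNFIB had 0 members lower at day 0 and 2 at day 7, and shMLL1 had 1 higher at day 0. With the whole interval beyond 2-fold, shNFIB had 0 lower at day 0 and 3 at day 7, and with DESeq2's size factors shMLL1 had 3 lower at day 0. Uncalled effects changed sign in 9 cases. With a line left out, the day effect ranged from -1.09 (without shNFIB) to 5.66 (without shMLL1, where it was called) for Mmp13, and from a value without shMLL1 to one without shNFIB of -0.31 to 1.22 for Adamts1, -0.67 to 1.37 for Adamts16 and -0.15 to 0.41 for Adam15. Without the block it was -0.051 for Adamts16. With library size alone the shNFIB effect was -0.037 for Timp1 and -0.038 for Adam15, and the shMLL1 effect for Mmp19 was 0.0045, or 0.0035 by DESeq2. Library size alone shifted log2 changes with day by 0.10 in shControl and shNFIB and 0.21 in shMLL1. At this depth, members under 10 counts allow no statement on change.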

Other observations

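Genes that regulate or receive the action of these proteases were also read in the fit over lines, with values as log2 fold change ± SE from edgeR. Of 12 AP-1 and ETS factors, 2 rose and 5 fell with day, beside 17.2% and 17.3% of all genes tested. Fos (2.50 ± 0.35, adjusted p = 0.0039) and Fosb (2.55 ± 0.62, adjusted p = 0.0224) rose from levels under 2 CPM, and Etv4 (-3.29 ± 0.57, adjusted p = 0.00744) and Etv5 (-1.49 ± 0.39, adjusted p = 0.0281) showed the largest decreases. Fosl1, an AP-1 subunit chosen after its values were seen, was at 2.57 CPM at day 0 and 1.61 CPM at day 7 in shControl, 3.90 and 18.6 CPM in shNFIB, and 5.20 and 0.533 CPM in shMLL1.

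Of 9 tested substrates of ADAMTS proteases, Comp (cartilage oligomeric matrix protein) rose (4.66 ± 0.30, adjusted p = 0.00058), and Col2a1 (-4.49 ± 0.78, adjusted p = 0.00767) and Vwf (-1.90 ± 0.56, adjusted p = 0.0399) fell. Of 12 ligands and receptors that ADAMs shed, 4 rose and 2 fell, and the same shares of all genes apply to both of these lists. The EGF receptor ligands Hbegf (-2.31 ± 0.60, adjusted p = 0.0266) and Btc (-1.86 ± 0.40, adjusted p = 0.015) fell, and Il6ra (1.66 ± 0.29, adjusted p = 0.00761) and Kitl (1.38 ± 0.34, adjusted p = 0.0217) rose. Hbegf was at 3.88 CPM at day 0 and 0.853 CPM at day 7 in shControl, 7.09 and 3.76 CPM in shNFIB, and 16.9 and 1.07 CPM in shMLL1, with its highest value in shMLL1 at day 0.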
